A study of Mus musculus with 16 samples.

Results

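The genes described here are 8 transporters, barrier proteins and regulators of the lateral wall of the cochlea, which holds the stria vascularis and the spiral ligament: *Slc12a2*, *Atp1b2*, *Bsnd*, *Slc26a4*, *Cldn11*, *Lrp2*, *Esrrb* and *Pou3f4*. They were chosen by name, from their known roles in making the endolymph and with potassium channels left out, out of 19937 genes that have a probeset of their own on the array. Each of the 8 genes has 1 such probeset, and all 8 were measured on all 16 arrays. The study asked how added miR-183, miR-96 and miR-182 change RNA levels in the mouse inner ear. Total RNA of homozygous Tg(GFAP-*Mir183,Mir96,Mir182*)1MDW mice (written Tg/Tg) and of wild-type (WT) mice, both on the FVB/NCrl background, was hybridised to MoGene 1.0 arrays, with 1 array per sample. At postnatal day 5 (P5) the tissue was the microdissected organ of Corti (P5-OC, 5 WT and 5 Tg/Tg arrays), and at day 18 (P18) it was the cochlea without the vestibular labyrinth (P18-cochlea, 3 WT and 3 Tg/Tg arrays). The P5 tissue is named for the organ of Corti and not for the lateral wall, and how much lateral wall it held is not stated. The Tg/Tg samples come from 1 transgenic line, in which a GFAP promoter, active in supporting cells and in glia, drives the 3 miRNA genes. Age and tissue change together between the P5 and P18 arrays and cannot be told apart, and in bulk tissue fewer cells of a type and less RNA per cell cannot be told apart either.

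The stria vascularis is a secretory epithelium that fills the cochlear duct with endolymph, a fluid rich in potassium that gives hair cells their driving force. Its marginal cells take up potassium, sodium and chloride from below through a cotransporter and a sodium pump, return the chloride through a channel that needs barttin, and release potassium into the endolymph, while its basal cells seal the tissue with tight junctions. Fibrocytes of the spiral ligament and the root and spindle cells beside the stria recycle ions and exchange bicarbonate, and the loss of several of these genes causes deafness in mice.

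The mature 5p strands of the 3 miRNAs are shown because the transgene was built to add them. They are RefSeq sequences on GRCm38.p6, written 5′ to 3′, with the seed, bases 2 to 8, in capitals.
mmu-miR-183-5p: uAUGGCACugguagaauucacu
mmu-miR-96-5p: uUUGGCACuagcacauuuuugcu
mmu-miR-182-5p: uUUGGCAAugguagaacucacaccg
The seeds of miR-96 and miR-182 are alike in their first 6 bases. That of miR-183 differs from that of miR-96 at its first base only, and from that of miR-182 at its first and last bases. All 3 genes lie on the minus strand of chromosome 6, at chr6:30169711-30169732, chr6:30169506-30169528 and chr6:30165962-30165986 for these strands. The array's probesets for the 3 genes were higher on every Tg/Tg array than on any WT array of the same age, by 3.31 to 3.46 on the log2 scale at P5 and by 3.36 to 4.09 at P18, in the direction that the labels give. How far these probesets follow the mature strands was not tested. The study reports a smaller rise of the mature miRNAs at P18 by RT-PCR. It reports no clear difference at P5 by in situ staining.

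The deposited values are log2 signals, so a difference of 1 is a doubling, and a level is not compared between genes because probesets differ in brightness. Differences were tested with limma across all 34760 probesets, and a gene is called where its p-value, adjusted over all probesets by the method of Benjamini and Hochberg, lies under 0.05. Array medians lay between 6.51 and 6.63 at P5 and between 6.33 and 6.36 at P18, and the lower quartile lay between 4.82 and 5.05 at P5. The labels call the arrays of a group biological replicates but do not say whether an array holds 1 animal or a pool. The mean of 3 Y-linked genes was high on 4 of 5 P5 WT arrays and on 1 of 5 P5 Tg/Tg arrays, and it was intermediate, at 7.22 to 7.66, on all 6 P18 arrays. At P5 sex, as read from these genes, thus went largely with genotype, and these cannot be fully told apart. As what an array holds is not stated, the p-values measure the spread between these samples.

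Of the 8 genes, 7 were higher and 1 was lower in the WT P18-cochlea than in the WT P5-OC, and none was called between Tg/Tg and WT at either age. The largest differences between the WT groups were those of *Esrrb* (3.70 on the log2 scale), *Slc26a4* (2.12) and *Bsnd* (1.85), and *Pou3f4* was the gene that was lower (-1). These counts stand beside a background in which 50.0% of all probesets were called between the WT groups, 19.8% as higher and 30.2% as lower at P18. Between Tg/Tg and WT 0.610% of all probesets were called at P5 and 0.443% at P18. Rose and fell are used below for higher and lower in the WT P18-cochlea than in the WT P5-OC, where age and tissue change together.

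**Figure D1:**
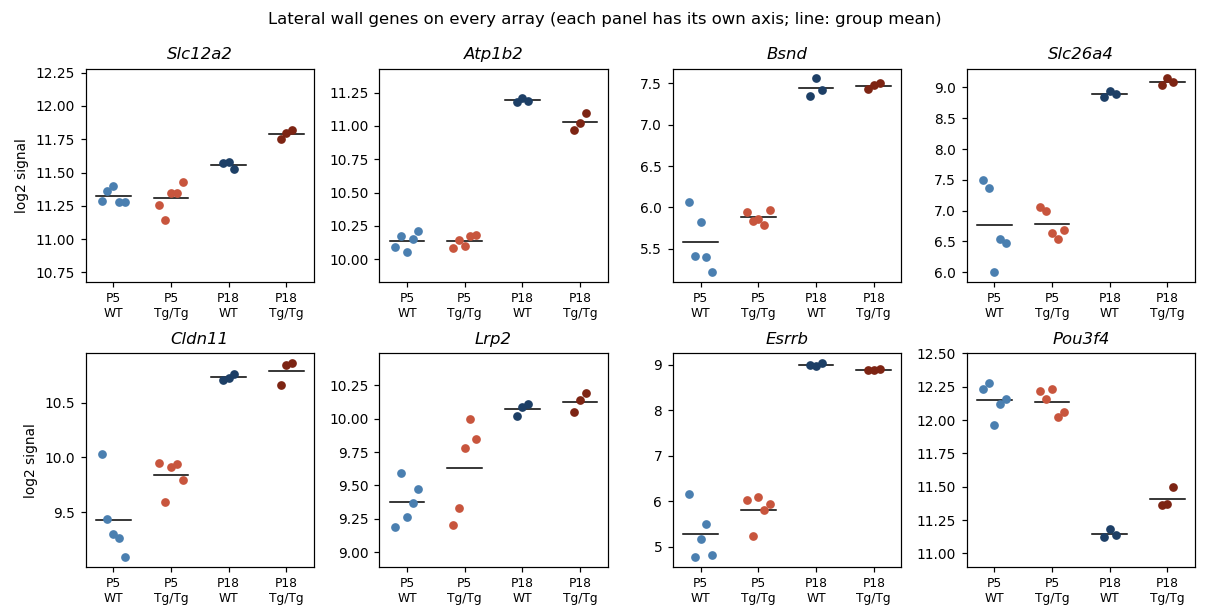
Log2 signal (vertical axis, a scale of its own in each panel) of the 8 lateral wall genes on each of the 16 arrays, grouped by age and genotype, with the group mean as a line. In every panel the 3 P18 WT points lie apart from the 5 P5 WT points, above them for 7 genes and below them for *Pou3f4*.

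*Slc12a2* encodes NKCC1, the cotransporter that loads marginal cells with sodium, potassium and chloride (probeset 10455873, gene at chr18:57878512-57946821, GRCm38.p6). On WT replicates 1 to 5 of the P5-OC its log2 signal was 11.29, 11.36, 11.40, 11.28 and 11.28, and on the Tg/Tg replicates it was 11.26, 11.14, 11.35, 11.35 and 11.43. At P18 the WT arrays read 11.57, 11.58 and 11.53 and the Tg/Tg arrays 11.75, 11.80 and 11.82. The genotypes overlapped at P5 and did not at P18, where all 3 Tg/Tg arrays were above all 3 WT arrays. The P18 difference was 0.23 (SE 0.08, 95% confidence interval 0.06 to 0.40, adjusted p = 0.353), and the P5 difference was -0.01 (SE 0.06, adjusted p = 0.918). Between the WT groups *Slc12a2* was higher at P18 by 0.24 (SE 0.07, adjusted p = 0.00986), the smallest of the 8 such differences.

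*Atp1b2* encodes the beta 2 subunit of the sodium pump, the form found at the basolateral side of marginal cells (probeset 10387505, chr11:69599728-69605978). Its P5 signals were 10.09, 10.17, 10.05, 10.15 and 10.21 in WT and 10.08, 10.14, 10.10, 10.17 and 10.18 in Tg/Tg. The P18 signals were 11.18, 11.21 and 11.19 in WT and 10.97, 11.02 and 11.10 in Tg/Tg. The P5 groups covered nearly the same range, whereas all 3 Tg/Tg arrays were below all 3 WT arrays at P18. That difference was -0.16 (SE 0.07, interval -0.31 to -0.02, adjusted p = 0.503), and the one at P5 was 0.00 (interval -0.11 to 0.11, adjusted p = 0.998). Between the WT groups *Atp1b2* was higher at P18 by 1.06 (SE 0.06, adjusted p = 1.0e-09), a 2.09-fold difference and the one with the smallest error of the 8.

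*Bsnd* encodes barttin, the subunit that chloride channels of marginal cells need to work (probeset 10514806, chr4:106483456-106492243). In the P5-OC its signal was 6.07, 5.41, 5.82, 5.40 and 5.22 in WT and 5.94, 5.84, 5.86, 5.79 and 5.97 in Tg/Tg. In the P18-cochlea it was 7.34, 7.56 and 7.42 in WT and 7.43, 7.48 and 7.50 in Tg/Tg. The WT arrays at P5 were spread wider (SD 0.35) than the Tg/Tg arrays (SD 0.08), with WT replicate 1 above all others. The genotype difference was 0.30 at P5 (SE 0.13, interval 0.03 to 0.57, adjusted p = 0.274) and 0.03 at P18 (SE 0.16, adjusted p = 0.987). In WT the signal was 1.85 higher at P18 (SE 0.15, adjusted p = 3.6e-08), or 3.62-fold.

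*Slc26a4* encodes pendrin, the anion exchanger that secretes bicarbonate into endolymph from spindle, root and outer sulcus cells (probeset 10399854, chr12:31519814-31560055). The P5 WT arrays read 7.49, 7.37, 6, 6.53 and 6.47, and the P5 Tg/Tg arrays read 7.05, 6.99, 6.63, 6.54 and 6.69. The P18 WT arrays read 8.84, 8.94 and 8.90, and the P18 Tg/Tg arrays read 9.04, 9.15 and 9.09. Replicates 1 and 2 held the highest P5 values in both genotypes, and the SD of the 5 WT arrays, 0.64, was larger than that of 97.7% of all probesets. The genotype difference at P5 was 0.00 (SE 0.22, interval -0.47 to 0.48, adjusted p = 0.998). At P18 the Tg/Tg arrays lay above the WT arrays without overlap, by 0.20 (SE 0.29, adjusted p = 0.929). The standard error came from all 4 groups and so holds the P5 spread. The difference between the WT groups was 2.12 (SE 0.26, adjusted p = 4.5e-06), or 4.34-fold.

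*Cldn11* encodes the claudin of the tight junctions between basal cells, and it is also a claudin of myelin in the central nervous system (probeset 10491313, chr3:31149920-31164326). Its P5 values were 10.03, 9.44, 9.30, 9.26 and 9.09 in WT against 9.95, 9.59, 9.91, 9.94 and 9.79 in Tg/Tg. Its P18 values were 10.71, 10.72 and 10.76 in WT against 10.66, 10.84 and 10.86 in Tg/Tg. Only WT replicate 1 kept the P5 groups from lying apart: the other 4 WT arrays were below all 5 Tg/Tg arrays. The P5 difference was 0.41 (SE 0.14, interval 0.12 to 0.70, 1.33-fold), which did not pass (adjusted p = 0.2), and the P18 difference was 0.06 (SE 0.18, adjusted p = 0.976). Between the WT groups *Cldn11* was higher at P18 by 1.31 (SE 0.16, adjusted p = 4.0e-06).

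*Lrp2* encodes megalin, an endocytic receptor of marginal cells and of other absorbing epithelia (probeset 10483439, chr2:69424335-69586029). Signals at P5 were 9.19, 9.59, 9.26, 9.37 and 9.47 in WT and 9.20, 9.33, 9.78, 10 and 9.85 in Tg/Tg. Signals at P18 were 10.02, 10.09 and 10.11 in WT and 10.05, 10.14 and 10.19 in Tg/Tg. Of the P5 Tg/Tg arrays, replicates 3 to 5 were above every WT array and replicates 1 and 2 were within the WT range. The difference was 0.26 at P5 (SE 0.13, interval -0.03 to 0.54, adjusted p = 0.348) and 0.05 at P18 (SE 0.17, adjusted p = 0.978). The WT rise was 0.70 (SE 0.15, adjusted p = 0.0013).

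*Esrrb* encodes an orphan nuclear receptor needed by marginal cells (probeset 10397440, chr12:86361117-86521628). Its P5 WT signals were 6.17, 4.78, 5.18, 5.50 and 4.83, of which 2 lay below the lower quartile of their own array, and its P5 Tg/Tg signals were 6.02, 5.24, 6.10, 5.80 and 5.94. Its P18 signals were 8.99, 8.97 and 9.03 in WT and 8.87, 8.88 and 8.90 in Tg/Tg. At P5 the highest array was again WT replicate 1, and at P18 the 3 Tg/Tg arrays were the lowest 3 by a narrow margin. The genotype difference was 0.53 at P5 (SE 0.22, interval 0.06 to 1, adjusted p = 0.267) and -0.11 at P18 (SE 0.28, interval -0.71 to 0.50, adjusted p = 0.973). The rise of 3.70 between the WT groups (SE 0.25, interval 3.16 to 4.24, adjusted p = 7.1e-09) starts from these dim P5 signals, so no fold is given for it.

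*Pou3f4* encodes a POU-domain factor of the otic mesenchyme and its fibrocytes, and its loss lowers the endocochlear potential (probeset 10601459, chrX:110814379-110819108). Signals of 12.23, 12.28, 11.96, 12.12 and 12.16 in WT and of 12.22, 12.16, 12.23, 12.02 and 12.06 in Tg/Tg were recorded at P5. They were 11.12, 11.18 and 11.14 in WT and 11.36, 11.37 and 11.50 in Tg/Tg at P18. It was the only one of the 8 genes that was lower on every P18 WT array than on any P5 WT array. The difference between the WT groups was -1 on the log2 scale, a fall to 0.499 of the P5 level (SE 0.08, adjusted p = 4.3e-08). Within P18 the Tg/Tg arrays were above the WT arrays without overlap, by 0.27 (SE 0.09, interval 0.07 to 0.46, adjusted p = 0.332), and at P5 the difference was -0.01 (adjusted p = 0.953).

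The order of the 8 differences between the WT groups ran from *Esrrb* through *Slc26a4*, *Bsnd*, *Cldn11*, *Atp1b2*, *Lrp2* and *Slc12a2* to *Pou3f4*. The 95% intervals were 1.57 to 2.67 for *Slc26a4*, 1.54 to 2.17 for *Bsnd*, 0.97 to 1.65 for *Cldn11*, 0.93 to 1.19 for *Atp1b2*, 0.37 to 1.02 for *Lrp2* and 0.09 to 0.39 for *Slc12a2*. Among these 6 genes each interval overlaps that of its neighbour in this order, and whether neighbours differ was not tested. The interval of *Esrrb* lies above all others and that of *Pou3f4* (-1.18 to -0.83) below all others. All 8 genes had WT groups that did not overlap, beside 49.2% of all probesets. The median difference of the 8 genes was 1.18, and that of all probesets was -0.06.

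RefSeq promoter windows of GRCm38.p6 were at hand for 5 of the 8 genes, with 6 start sites, and short stretches are shown for *Slc26a4*, *Cldn11* and *Esrrb*, the genes among these 5 that rose by over 1 on the log2 scale. Matches were looked for on both strands in the 250 bases before each start. The capitals below mark the TATA box letters TATAAA in *Slc26a4* and the CCAAT box in *Cldn11*, where it is read on the opposite strand, and in *Esrrb*.
*Slc26a4*, chr12:31559998-31560027, minus strand: ttgagtgagagcTATAAAggcagcagaaaa
*Cldn11*, chr3:31149842-31149871, plus strand: gcctggcttgcgATTGGccggctcgtctcg
*Cldn11*, chr3:31149873-31149902, plus strand: gggctgtcgcggATTGGcgcttgccagccc
*Esrrb*, downstream start, chr12:86421577-86421606, plus strand: cctgagagatagCCAATaggagccaaatca
TATAAA was found for *Slc26a4* alone among the 5 genes and in 12.4% of all 32851 windows. CCAAT was found for *Cldn11*, *Pou3f4* and the downstream start of *Esrrb*, and in 33.8% of all windows. The GC box GGGCGG was found for *Lrp2* and in 32.7% of all windows. The estrogen-related receptor element TCAAGGTCA (0.387% of all windows) and the octamer ATGCAAAT bound by POU factors (1.6%) were found in none of the 6 windows. No match overlapped another, and a match describes these letters only.

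Between Tg/Tg and WT, 0 of the 8 genes were called by limma at P5, with 3 (*Cldn11*, *Esrrb* and *Bsnd*, all higher in Tg/Tg) at an unadjusted p under 0.05, where 16.4% of all probesets stood. At P18 0 of 8 were called, with 3 (*Pou3f4* and *Slc12a2* higher, *Atp1b2* lower) at an unadjusted p under 0.05, beside 8.77% of all probesets. The groups did not overlap for 0 of 8 genes at P5, where 1.67% of all probesets had groups apart, and for 5 of 8 at P18, where 27.6% did. Of these 5 genes *Slc26a4*, *Slc12a2* and *Pou3f4* were higher and *Atp1b2* and *Esrrb* lower in Tg/Tg. The median of the 8 differences was 0.13 at P5 and 0.05 at P18, beside -0.01 and -0.02 over all probesets. The intervals reach no further than 1 at P5 and 0.82 at P18, and they use a spread shared by all 4 groups. For *Esrrb* that spread joins SDs of 0.57 and 0.34 at P5 with 0.03 and 0.02 at P18. Its P5 interval ends at 2-fold and may be too narrow, so no limit is drawn from it. Apart from *Esrrb* at P5, a genotype difference above 2-fold lies outside these shared-spread intervals for each gene.

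**Figure D2:**
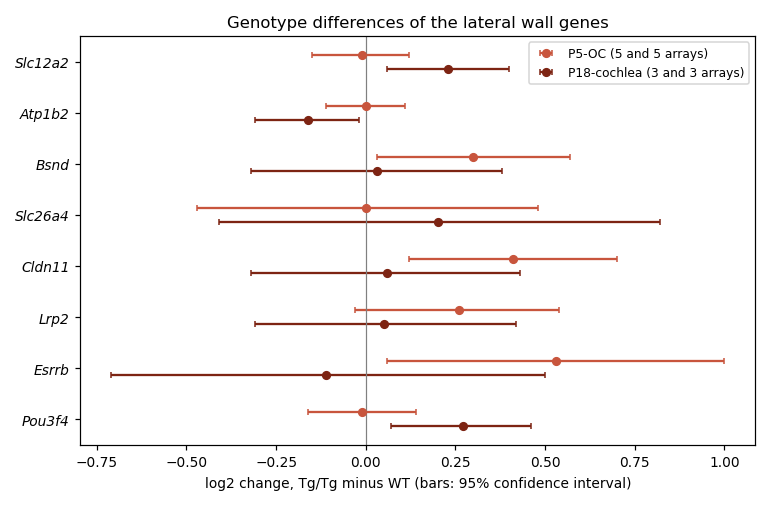
Log2 difference between Tg/Tg and WT (horizontal axis) for the 8 lateral wall genes at P5 and at P18, with 95% confidence intervals from the limma fit. *Cldn11*, *Esrrb* and *Bsnd* at P5 and *Slc12a2*, *Pou3f4* and *Atp1b2* at P18 have intervals off 0 before adjustment, and none has an adjusted p under 0.05.

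The test of the difference between the genotype effects at the ages called 0 of 8 genes, beside 0.596% of all probesets. At an unadjusted p under 0.05, where 14.3% of all probesets stood, there were 2, *Pou3f4* (0.28, SE 0.11, adjusted p = 0.296) and *Slc12a2* (0.24, SE 0.10, adjusted p = 0.3). For *Esrrb* the effect at P18 was 0.63 below that at P5 (-0.63, SE 0.36, adjusted p = 0.433), and for *Cldn11* it was 0.36 below (-0.36, SE 0.22, adjusted p = 0.479).

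The genotype calls depended on single arrays and on how arrays were weighted. Without WT replicate 1 at P5, *Cldn11* was 0.56 higher (adjusted p = 0.00482) and *Esrrb* 0.75 higher (adjusted p = 0.0415) in Tg/Tg, *Bsnd* was 0.42 higher (adjusted p = 0.0502), and the share of all probesets called was 1.71%. With array weights *Cldn11* was called at P5 (0.50, adjusted p = 0.0406) and *Slc12a2* and *Pou3f4* were called at P18 (0.23 and 0.26, adjusted p = 0.0173 and 0.0167), while 4.93% of all probesets were called at P5 and 6.27% at P18. When the mean of the Y-linked genes entered the fit, the P5 differences were 0.24 for *Cldn11*, 0.27 for *Esrrb* and 0.14 for *Bsnd*, with adjusted p = 0.77, 0.82 and 0.84. That mean goes largely with genotype at P5, so this fit cannot fully separate sex from genotype.

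Markers of other cells differed with genotype on the same arrays. At P5 5 of 6 measured Schwann cell markers were called lower in Tg/Tg, and their mean log2 level was 8.12 to 8.67 there against 9.76 to 9.95 in WT. At P18 1 of these 6, *Pmp2*, was called higher in Tg/Tg (1.57, adjusted p = 0.00417), and the mean level was 9.34 to 9.42 against 9.03 to 9.12. Of 8 oligodendrocyte markers 1 was called lower at P5, with a mean level of 6.13 to 6.32 in Tg/Tg and 6.21 to 6.41 in WT. At P18 6 of 6 skeletal muscle markers were called higher in Tg/Tg (8.72 to 8.88 against 6.13 to 6.17), and 4 of 4 cerebellar granule cell markers were called lower (5.16 to 5.19 against 6.50 to 6.57). Of 8 markers of melanocytes and of intermediate cells, the middle layer of the stria, 0 were called at either age, with mean levels of 6.78 to 7.32 in Tg/Tg and 6.90 to 7.42 in WT at P5. At P18 the mean levels did not overlap, at 8.05 to 8.17 in Tg/Tg and 7.95 to 8.02 in WT. *Mitf* of this list was called by limma for the difference between the genotype effects (0.75, adjusted p = 0.0456). Levels at P18 were also apart for oligodendrocyte (7.34 to 7.41 against 7.14 to 7.22) and supporting cell markers (9.13 to 9.18 against 9.06 to 9.11). Those of choroid plexus were apart and lower in Tg/Tg, as were those of red cells (11.71 to 11.75 against 11.92 to 11.97). Those of hair cells and astrocytes overlapped. Of the wider lists described below, the spiral ligament fibrocyte genes were apart and higher in Tg/Tg (11.07 to 11.11 against 10.94 to 10.95). Of these 12 genes 11 had a difference above 0 and 0 were called. The calcium and sodium absorption genes were apart and lower (7.17 to 7.21 against 7.23 to 7.35). Of single probesets 27.6% had groups apart at P18, and the share for means over several genes was not computed. The part of these cells in the differences of the 8 genes was not tested.

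On single P5 arrays *Esrrb*, *Cldn11* and *Bsnd* shared some of their deviations. WT replicate 1 was above its group mean by the most for all 3 genes, and WT replicate 5 was below it for all 3. On WT replicate 3 *Bsnd* was above its mean and *Cldn11* and *Esrrb* were below theirs, and on WT replicate 4 *Esrrb* alone was above. Over the 16 arrays, after the group means were subtracted, the correlation was 0.79 between *Cldn11* and *Esrrb* (Spearman 0.54), 0.72 between *Bsnd* and *Cldn11* (0.46) and 0.68 between *Bsnd* and *Esrrb* (0.35). Without the 2 arrays on which the first-named gene lay farthest from its median, these values were 0.42, 0.03 and 0.17. All 3 relations were thus weaker without those arrays, the last 2 the most. Among all 28 pairs of the 8 genes 7 had a correlation over 0.5 and 1, *Bsnd* with *Atp1b2*, was under -0.5. *Slc26a4* went with *Pou3f4* at 0.76, or 0.62 without 2 arrays, and *Slc12a2* with *Lrp2* at 0.63, or 0.46. These correlations are descriptions with no test, the points of each gene share their arrays, and the P5 arrays carry most of the spread.

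**Figure D3:**
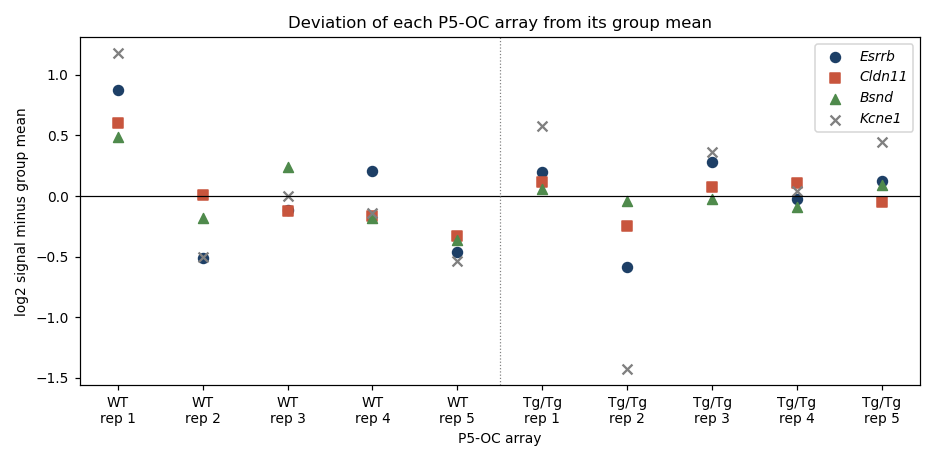
Log2 signal minus the mean of its group (vertical axis) on each P5-OC array for *Esrrb*, *Cldn11* and *Bsnd*, with the potassium channel gene *Kcne1* beside them, WT to the left and Tg/Tg to the right of the dotted line. WT replicate 1 is above 0 for all 4 genes, and Tg/Tg replicate 2 is the lowest array for *Esrrb* and *Kcne1*.

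Genes with the deviations most like each member were sought among 19929 others. Each is the highest of so many over 16 arrays, so its correlation is raised by that choice and has no test. For *Esrrb* the leading gene was *Kcne1*, which encodes the beta subunit of the potassium channel of marginal cells. Its correlation was 0.91 (Spearman 0.74), or 0.83 without 2 arrays. *Slc41a3* (0.90) and *Chtf18* (0.87) followed. *Kcne1* read 7.26, 5.57, 6.08, 5.94 and 5.54 on the P5 WT arrays and 7.29, 5.29, 7.08, 6.76 and 7.17 on the P5 Tg/Tg arrays. It was thus also highest in WT on replicate 1, and its genotype difference of 0.64 was not called (SE 0.35, adjusted p = 0.371). Of the other strial potassium channel genes, *Kcnj10* had a difference of -0.39 (SE 0.09, adjusted p = 0.056) and *Kcnq1* of 0.11 (SE 0.10, adjusted p = 0.625) at P5, and neither was called.

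For *Cldn11* the genes most alike were *Msr1*, a scavenger receptor of macrophages (0.93), *Aqp5*, a water channel (0.92), and *Dct*, a melanin enzyme and a marker of melanocytes and intermediate cells (0.88). *Dct* was 8.58 on P5 WT replicate 1 and 5.51 to 6.54 on the other 4 WT arrays, and 6.19 on Tg/Tg replicate 2 and 7.24 to 8.63 on the other 4 Tg/Tg arrays. Its genotype difference at P5 was 1.08 (SE 0.50, adjusted p = 0.303), whereas *Ednrb* (-0.61) and *Mitf* (-0.43) of the same marker list were at values below 0 (both adjusted p = 0.0649). The mean level of the 3 strial potassium channel genes ran from 7.31 to 8.06 over the P5 WT arrays and from 7.17 to 7.95 over the P5 Tg/Tg arrays. Their part in the P5 differences of *Cldn11*, *Esrrb* and *Bsnd* was not tested.

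The patterns of the remaining genes had other neighbours. *Slc26a4* was most like *Lamp1*, a lysosomal membrane protein gene (0.98), *Sncaip* (0.96) and *Rasip1* (0.93). At P5 *Slc26a4* was above its group mean on replicates 1 and 2 and below it on replicates 3, 4 and 5 in both genotypes, so its neighbours share much of that split. *Lrp2* was most like *Atad3aos* (0.91), *Otx2*, a homeobox gene and a marker of choroid plexus (0.91), and *Tmbim6* (0.90), and the mean level of 7 choroid plexus markers was 6.98 to 7.24 in WT and 6.95 to 7.42 in Tg/Tg at P5. *Pou3f4* was most like *Gas6* (0.93), *Actn1* and *Sec13* (both 0.92), *Slc12a2* most like *Rps4x* (0.90), *Bsnd* most like *Kcnh3* (0.90) and *Atp1b2* most like *Inf2* (0.87).

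The wider set of ion and water transport genes and lateral wall genes held 90 names in 7 lists, of which 81 were measured. Of the 81, limma called 0 between Tg/Tg and WT at P5, with 10 at an unadjusted p under 0.05, and 0 at P18, with 12. Over all probesets 16.4% and 8.77% had an unadjusted p under 0.05 at these ages. The smallest adjusted p was 0.126 at P5 and 0.256 at P18. Between the WT groups 47 of 81 (58.0%) were called, 29 higher and 18 lower at P18, beside 50.0% of all probesets. The counts of each list below stand beside 19.8% of all probesets called higher and 30.2% called lower.

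Among sodium pump subunits 6 of 8 measured genes rose and 1 fell. *Atp1b3*, another beta subunit, was 1 higher at P18 (SE 0.15, adjusted p = 3.5e-05), *Atp1b1* 0.37 higher and *Fxyd5*, a pump regulator, 1.45 higher. *Fxyd7*, a regulator found in neurons, was lower (-1.14, SE 0.16, adjusted p = 2.0e-05). The chloride channel and cation-chloride carrier list, to which the pathway of *Slc12a2* belongs, had the lowest share of calls of the 7 lists: 0 of 10 rose and 2 fell, the kinase genes *Stk39* (-0.28) and *Wnk1* (-0.21), whose products control cotransporters and whose calls (both adjusted p = 0.0359) were each lost under 5 of the alternative settings.

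Proton and bicarbonate genes rose in 10 of 18 cases (55.6%) and fell in 3 (16.7%). The calls of 2 that fell, *Slc26a6* (-0.23) and *Atp6v1b1* (-0.58), were lost under 8 and 6 of 23 alternative settings. *Slc4a11*, a transporter of spiral ligament fibrocytes, had the largest difference of the wider set (5.51, SE 0.11, adjusted p = 8.0e-15), from a mean of 6.08 at P5 to 11.58 at P18. *Slc4a10*, which encodes a sodium bicarbonate carrier, rose by 4.64 (SE 0.36), and the carbonic anhydrase gene *Car2* by 2.04 (SE 0.09). *Slc4a1* rose by 5.43, and as the anion exchanger of red cells it also stands in the red cell marker list, in which 2 of 2 measured genes rose and whose mean level was 6.99 to 8.26 at P5 and 11.92 to 11.97 at P18 in WT. The part of red cells in that rise was not tested.

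Of the calcium and sodium absorption genes 3 of 11 (27.3%) rose and 2 (18.2%) fell, shares near those of all probesets. Those that rose were the 3 subunits of the epithelial sodium channel, *Scnn1a* (1.87), *Scnn1b* (0.62) and *Scnn1g* (0.55). The calcium pump gene *Atp2b1* (-0.70) and the calcium buffer gene *Calb1* (-1.79) fell. Water channels rose in 4 of 9 cases, *Aqp9* by 2.50, *Aqp1* by 1.99, *Aqp5* by 1.45 and *Aqp7* by 0.42, and *Aqp11* fell (-1.03). *Aqp7* lay below the lower quartile on 3 of 5 P5 WT arrays, and its call was lost under 2 of 23 settings, where all settings gave 0.30 to 0.72.

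Of the spiral ligament fibrocyte genes 2 of 12 (16.7%) were higher and 5 (41.7%) lower, near the shares of all probesets. *Coch*, the gene of the matrix protein cochlin, rose by 2.01 (SE 0.28) and *Otos*, which encodes otospiralin, by 0.96 (SE 0.15). *Otor* (-2.37), the mesenchymal factor *Tbx18* (-1.54) and *Eya1* (-1.25) fell, as *Pou3f4* did. Of the marginal, spindle and root cell genes 4 of 13 (30.8%) were higher and 4 lower, also near the background: *Anxa1* rose by 2.03 and *Hmx3* by 1.11, and the chloride channel gene *Ano1* (-1.50) and *Epyc* (-1.12) fell.

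**Figure D4:**
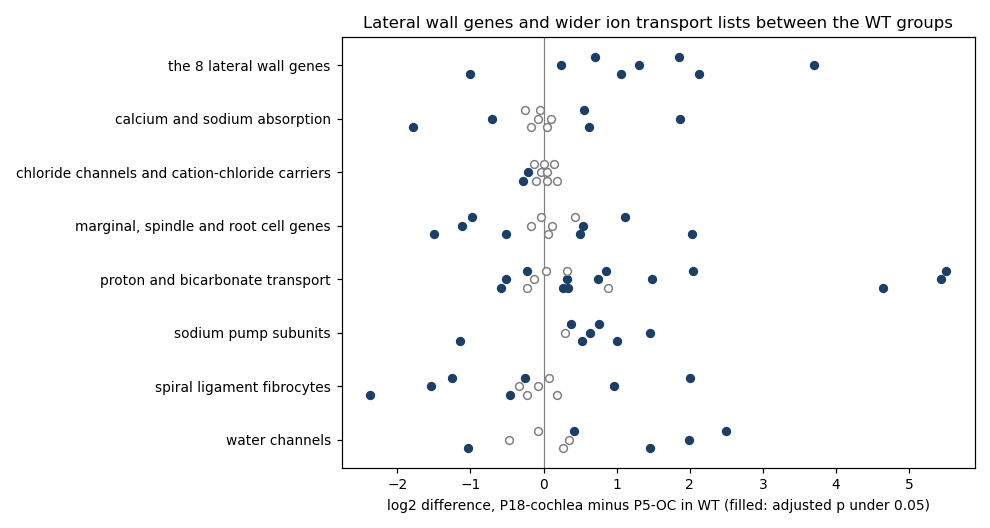
Log2 difference between the WT P18-cochlea and the WT P5-OC (horizontal axis) for the 8 lateral wall genes and for each measured gene of the 7 wider lists, filled where the adjusted p is under 0.05. The 8 genes span -1 to 3.70, the 3 rightmost points are *Slc4a11*, *Slc4a1* and *Slc4a10*, and the chloride carrier list stays close to 0.

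Other cell types also differed between the WT groups, where age and tissue cannot be told apart. Of the strial potassium channels 2 of 3 rose, *Kcne1* by 3.85 (SE 0.41) and *Kcnq1* by 1.51 (SE 0.12), and 5 of 8 melanocyte and intermediate cell markers rose and 1 fell. Hair cell markers fell in 6 of 8 cases and rose in 1, and supporting cell markers of the organ of Corti fell in 4 of 6 and rose in 1, with mean levels of 10.20 to 10.41 in the WT P5-OC and 9.06 to 9.11 in the WT P18-cochlea. Oligodendrocytes also express *Cldn11*, and their markers rose in 5 of 8 cases and fell in 1 (6.21 to 6.41 against 7.14 to 7.22). The part of each of these in the rise of the 7 genes was not tested.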

How the data were processed

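Total RNA of 16 mouse inner ear samples was measured on 1 MoGene 1.0 array each. The deposited values are log2 signals of 34760 probesets as the authors normalized them, with a lowest value of 2.09, a highest of 13.72 and none missing. The background correction and normalization that made them are not given in the sources used here, and no further step was applied. Depth is not a quantity of arrays, and their number limits the precision. Samples were grouped by title, since other label fields conflict with the titles in age, tissue and genotype.

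Names came from the platform table, in which 21640 probesets have 1 gene symbol, 1321 have several and 11799 are not listed. The single-symbol probeset with the highest mean stood for a gene. A fit with 4 group means was made in limma 3.58.1 under R 4.3.3 (12 residual and 3.23 prior degrees of freedom) and tested on simulated data. Contrasts were Tg/Tg minus WT at each age, their difference, and P18 minus P5 in WT, two-sided, adjusted by Benjamini-Hochberg over all probesets, called under 0.05 with no fold limit. Coordinates and sequences are those of RefSeq on GRCm38.p6, and figures were made in matplotlib 3.10.9 under Python 3.11.15.

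The genes named are the 8 members, up to 4 called genes in each direction per wider list, taken by adjusted p, and the 3 genes most like a member. *Kcnq1*, *Kcnj10*, *Dct*, *Ednrb*, *Mitf* and *Pmp2* come from marker lists, *Ednrb*, *Mitf* and *Kcnj10* chosen after their values were seen, and *Dct* and *Kcne1* were given by array after their values were seen. The members and lists were chosen with earlier results of these data known. Tried instead were the replicate number as a block, each age fitted alone, only the brighter probesets, only those with 1 gene, a second quantile normalization, an intensity trend with a robust prior, array weights, the Y-linked mean as a covariate, the mean of a gene's probesets, and each array left out in turn. A random replicate block was added after the data were seen.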

Additional observations from a re-analysis of the deposited data

Results flagged for a closer look

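Among the 46 genes given with values, 92 groups of 5 P5 arrays were examined for an array far from the other 4, a test that chance meets in about 1 group in 20, and 6 arrays stood apart. No array did so for any of the 8 lateral wall genes. *Fxyd5*, a sodium pump regulator, read 10.24 on WT replicate 1 and 9.44 to 9.63 on the other WT arrays. The epithelial sodium channel genes *Scnn1a* and *Scnn1b* read 5.59 and 6.70 on WT replicate 3 against 5.98 to 6.14 and 7.02 to 7.09 on the others, and *Scnn1g* read 6.30 on Tg/Tg replicate 1 against 6.83 to 6.93. *Slc4a1*, also a red cell gene, read 7.78 on Tg/Tg replicate 2 against 6.66 to 6.90, and the fibrocyte gene *Otor* read 12.16 on Tg/Tg replicate 3 against 12.48 to 12.58.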

How the results depend on the processing

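Under all settings that could be fitted, each of the 8 genes kept the call and direction of its difference between the WT groups, and none was called for the difference between the genotype effects. The number of the 8 genes called between genotypes was 0 at both ages and changed to 1 at P5 and 2 at P18 with array weights, which ran from 0.32 to 2.89. It ranged from 0 to 2 at P5 when each array was left out, with 2 without P5 WT replicate 1. Of the 81 wider genes, the 0 called at P18 became 6 with separate fits per age, which called 1.37% of all probesets, and 9 with array weights, which called 6.27%. Those called at P5 ranged from 0 to 2 with arrays left out, at 2 without WT replicate 1 and 1 without Tg/Tg replicate 3. The cause was not tested.

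Differences near 0 that were not called changed sign. At P5 that of *Atp1b2* was 0.02 after repeated quantile normalization and -0.02 to 0.02 with arrays left out, that of *Slc26a4* -0.14 with the Y-linked covariate and -0.19 to 0.18 with arrays left out, that of *Pou3f4* 0.00 with array weights and -0.06 to 0.02 with arrays left out, and that of *Slc12a2* -0.05 to 0.03 with arrays left out. At P18 that of *Bsnd* was -0.02 to 0.09 with arrays left out. With a replicate block 0 of the 8 genes and 0 of the 81 were called at either age. The fixed block cannot estimate the difference between the WT groups and was not run there, where a random block gave 8 of 8 and 47 of 81 as without it. Same-numbered arrays were not taken as pairs: their deviations correlated at -0.22 to 0.36 at P5 and at 0 to 0.07 at P18, and 4 of 10 and 2 of 6 arrays were most like the array of their own number. The filter on dim probesets dropped *Bsnd*, so it has no value there. Signals near the lower quartile, such as *Esrrb* at P5, limit how small a level can be told from background.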
